A study of Rattus norvegicus with 12 samples.

Results

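Genes of sterol, fatty acid and barrier lipid synthesis were followed in rat esophagus after surgical reflux. The set held 32 genes, named by symbol: 15 enzymes of cholesterol synthesis, 3 regulators of lipid synthesis, 3 enzymes of fatty acid synthesis, 4 genes of fatty acid elongation and activation, 4 of ceramide and glucosylceramide synthesis, and 3 of the cornified lipid barrier. They filled 33 of the 17450 rows of the count table, because Elovl6 had 2 Ensembl identifiers. All 33 rows passed the filter on low counts, as did 13761 rows in all.

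The BE group consisted of esophageal tissue from rats with esophagoduodenostomy (EDA), an operation that connects esophagus and duodenum, lets bile and duodenal contents flow back, and serves as a model of Barrett's esophagus. The NC group consisted of esophageal tissue from rats with no treatment, not from sham-operated rats. Each group had 3 input libraries, which measure total RNA, and 3 libraries immunoprecipitated with an antibody to N6-methyladenosine (m6A), a methyl mark on RNA. The labels state no strain, sex, age or time after surgery, and do not say whether each library came from a separate animal. The p-values therefore cover only variation among these libraries, which may be technical.

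The input libraries held 15543460 to 17471748 counts in BE and 11213531 to 16863737 counts in NC. Levels are given as CPM, the usual read-count unit scaled to library size by TMM. The labelled tissue was checked against marker genes. Squamous epithelial markers summed to 59700 to 63600 CPM in BE libraries and 34200 to 46000 CPM in NC libraries, and 9 of 11 were higher in BE. The log2 fold changes of those 9 ran from 0.41 for Krt4 to 3.58 for Krt14, while Sbsn (0.07) and Ivl (-0.95) did not pass. Of the columnar markers, Vil1 and Muc2 were at 0 in all 3 BE libraries, and Krt20 reached 2.18 CPM in BE replicate 2 and was at 0 in the other BE and the NC libraries. BE replicate 1 held Krt8 (9.33 CPM), Krt18 (33.5 CPM) and Cdh17 (4.53 CPM), which reached no more than 0.631 CPM in the other BE libraries and 0.503 CPM in NC libraries. Of the sebaceous markers, Mc5r was lower in BE, at 0 to 0.459 CPM against 2.49 to 7.34 CPM in NC. Soat1 was higher in BE, at 14.2 to 20.3 CPM against 7.25 to 13.7 CPM in NC, and Far2 and Dgat2l6 had too few counts to be tested. Striated muscle markers summed to 612 to 652 CPM in BE and 17300 to 19900 CPM in NC, with 7 of 8 lower. Adipocyte markers summed to 61.1 to 90.4 CPM in BE and 216 to 287 CPM in NC, with 6 of 12 tested rows lower and none higher, and Lep and Adrb3 had no count in any BE library. Hepatocyte markers summed to 7700 CPM in BE replicate 1, against 14.7 and 16.7 CPM in the other BE libraries and 13.2 to 21.9 CPM in NC libraries. The part of these shifts in the results below was not tested, and in bulk tissue fewer cells of a type and less RNA per cell cannot be told apart.

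Cholesterol is built from acetyl-CoA through mevalonate, isoprenoid diphosphates, squalene and lanosterol. The transcription factors SREBP-2 (Srebf2) and SREBP-1 (Srebf1) switch on genes of sterol and fatty acid synthesis when the sterol level of the endoplasmic reticulum is low, and INSIG1 holds their precursors there when it is high. In keratinizing squamous epithelia, which line the rat esophagus, very long fatty acids are joined to a sphingoid base to form ceramides, which are glucosylated, packed into lamellar granules and released as a lipid barrier.

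Most of these genes were higher in BE input RNA. Of the 33 rows, 25 were higher and 2 were lower, and 6 did not pass the threshold (edgeR quasi-likelihood test, Benjamini-Hochberg adjusted over all genes tested, adjusted p under 0.05). Over all genes tested, 21.8% were higher and 21.8% were lower. The median log2 fold change of BE over NC was 0.86 over the 33 rows and 0.03 over all genes tested. That of the 11 squamous epithelial markers given above was 1.18, and the part of this epithelial shift in the rises was not tested. Every BE library lay above every NC library in 26 of the 33 rows, against 28.2% of all genes, and every BE library lay below in 2 rows, against 27.8% of all genes. A rise of at least 2-fold was called in 10 rows, against 10.3% of all genes. Without BE replicate 1, the library with hepatocyte transcripts, 26 rows were higher and 3 were lower.

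**Figure D1:**
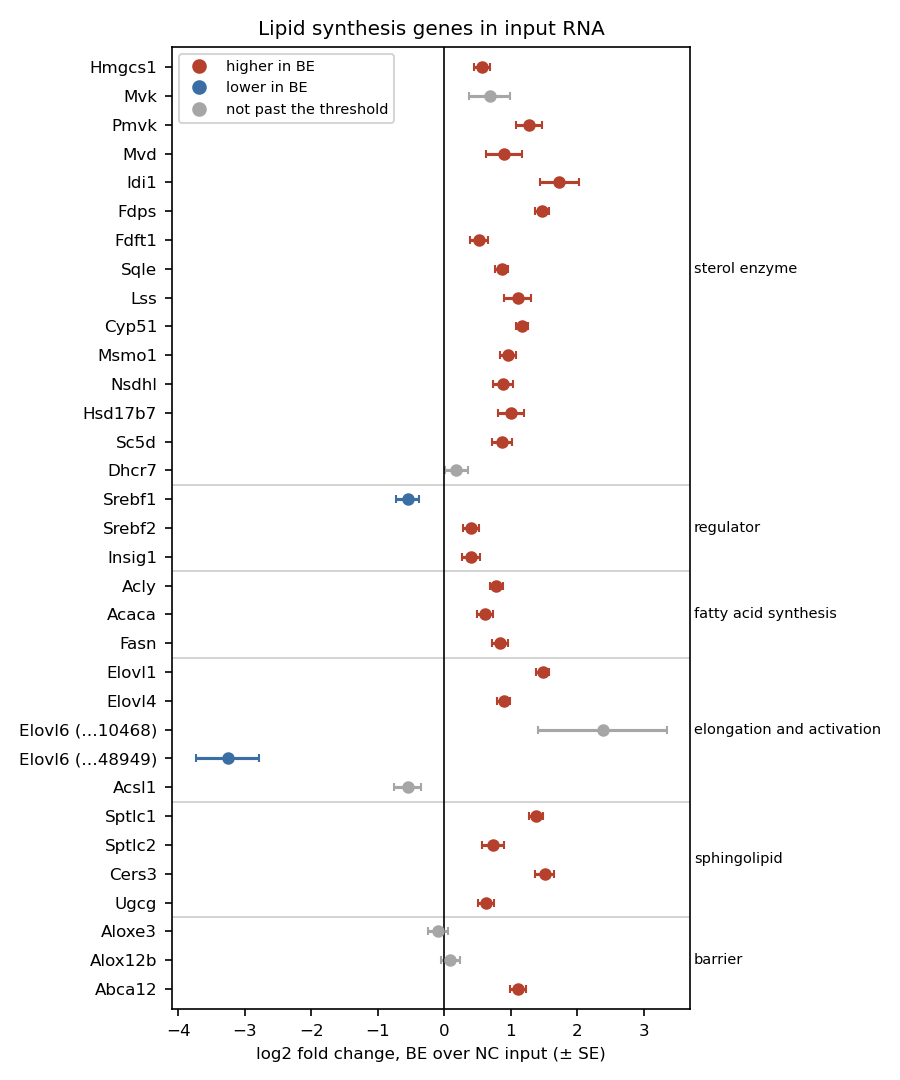
The log2 fold change of BE over NC input RNA is plotted on the horizontal axis for each of the 33 rows, with its standard error as the bar and the pathway step at the right. The sterol enzymes all lie right of 0, between 0.18 for Dhcr7 and 1.73 for Idi1, while Srebf1, Acsl1, Aloxe3 and the Elovl6 row ENSRNOG00000048949 lie left of 0, at -0.55, -0.55, -0.10 and -3.26.

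Among the 15 enzymes of cholesterol synthesis, 13 were higher in BE, none was lower, and the median log2 fold change was 0.90. The largest rise was in Idi1 (ENSRNOG00000016690), which isomerizes isopentenyl diphosphate. Its level was 92.8, 126 and 149 CPM in BE replicates 1 to 3, against 24.6, 50.2 and 35.7 CPM in NC replicates 1 to 3. The lowest BE library was above the highest NC library, and the log2 fold change was 1.73 ± 0.29 (SE, n = 3 each, edgeR adjusted p = 0.00227). Fdps (ENSRNOG00000043377), which makes farnesyl diphosphate, had 325, 351 and 341 CPM in BE libraries and 115, 132 and 120 CPM in NC libraries. Its 3 BE values were close to one another and far above NC, with a log2 fold change of 1.47 ± 0.10 (SE, n = 3 each, edgeR adjusted p = 3.3e-06). Pmvk (ENSRNOG00000020696), the second kinase of the mevalonate branch, had 46.1, 58.4 and 49.3 CPM in BE libraries and 16.9, 19.5 and 27.2 CPM in NC libraries. The groups did not overlap, and the log2 fold change was 1.27 ± 0.20 (SE, n = 3 each, edgeR adjusted p = 0.000595).

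Downstream of squalene, Cyp51 (ENSRNOG00000007234), the lanosterol demethylase, had 408, 425 and 411 CPM in BE libraries and 176, 186 and 191 CPM in NC libraries. Both groups were tight, and the log2 fold change was 1.17 ± 0.09 (SE, n = 3 each, edgeR adjusted p = 8e-06). Lss (ENSRNOG00000001267), which closes the sterol rings to give lanosterol, had 40.6, 43.5 and 31.8 CPM in BE libraries and 21.5, 18.1 and 14.7 CPM in NC libraries. BE replicate 3 was the lowest of the BE values and still above NC, and the log2 fold change was 1.10 ± 0.20 (SE, n = 3 each, edgeR adjusted p = 0.00153). Hsd17b7 (ENSRNOG00000002826), a sterol keto reductase, had 25.4, 38.1 and 28.9 CPM in BE libraries and 14.6, 16.7 and 14.8 CPM in NC libraries. BE replicate 2 was the highest, no BE value reached down to NC, and the log2 fold change was 1.00 ± 0.20 (SE, n = 3 each, edgeR adjusted p = 0.0029).

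The other 7 enzymes that passed rose by less than 2-fold, with log2 fold changes of 0.52 to 0.96. They were Fdft1 (squalene synthase, 0.52), Hmgcs1 (cytosolic HMG-CoA synthase, 0.57), Sqle (squalene epoxidase, 0.86), Sc5d (a sterol desaturase, 0.87), Nsdhl (a sterol dehydrogenase of the demethylation steps, 0.88), Mvd (mevalonate diphosphate decarboxylase, 0.90) and Msmo1 (methylsterol monooxygenase, 0.96). Their adjusted p ran from 0.000104 for Sqle to 0.0219 for Mvd by edgeR. Mvd had 15.9, 30.4 and 17.9 CPM in BE libraries and 11.7, 12.4 and 10.3 CPM in NC libraries, so that BE replicate 2 stood above the rest. Its call was lost without BE replicate 2 (log2 fold change 0.56, edgeR adjusted p = 0.104) and without NC replicate 1, 2 or 3 (edgeR adjusted p = 0.0586, 0.0517 and 0.0734).

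A pair of sterol enzymes did not pass. Mvk, the mevalonate kinase, had 22.1, 12.8 and 12.9 CPM in BE libraries and 12.1, 7.05 and 10.8 CPM in NC libraries, a log2 fold change of 0.68 ± 0.31 (SE, n = 3 each, edgeR adjusted p = 0.101). All 3 BE values were above all 3 NC values, though 2 BE values were within 1 CPM of NC replicate 1. Without BE replicate 1, the library with hepatocyte transcripts, the log2 fold change of Mvk was 0.39 (edgeR adjusted p = 0.315). With each other library left out it was 0.48 to 0.83. Dhcr7, which reduces the last double bond in one branch of cholesterol synthesis, had 30.8, 26 and 27.8 CPM in BE libraries and 24.3, 27.9 and 22.5 CPM in NC libraries. The groups overlapped, and the log2 fold change was 0.18 with a 95% confidence interval of -0.20 to 0.56.

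Of the 3 regulators, 2 were higher and 1 was lower in BE, each by less than 2-fold. Srebf2 (ENSRNOG00000007400) had 178, 185 and 167 CPM in BE libraries and 151, 131 and 119 CPM in NC libraries. The groups did not overlap, and its log2 fold change was 0.40 ± 0.12 (SE, n = 3 each, edgeR adjusted p = 0.019). Insig1 (ENSRNOG00000006859), itself a known target of SREBP, had 99.8, 112 and 100 CPM in BE libraries and 78.1, 91.4 and 67.7 CPM in NC libraries. The groups did not overlap here either, and the log2 fold change was 0.40 ± 0.13 (SE, n = 3 each, edgeR adjusted p = 0.0345). Srebf1 (ENSRNOG00000003463) was lower, with 41.6, 26.8 and 34.6 CPM in BE libraries and 50.9, 46.3 and 53.5 CPM in NC libraries. Every BE value was below every NC value, with BE replicate 1 nearest to NC, and the log2 fold change was -0.55 ± 0.17 (SE, n = 3 each, edgeR adjusted p = 0.0272).

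Each of these 3 calls was lost when some single libraries were left out. The Srebf2 call was lost without BE replicate 2, NC replicate 2 or NC replicate 3 (edgeR adjusted p = 0.062, 0.0655 and 0.0774). The Insig1 call was lost without BE replicate 2, BE replicate 3, NC replicate 1 or NC replicate 3 (edgeR adjusted p = 0.109, 0.0607, 0.0953 and 0.123). The Srebf1 call was lost without BE replicate 2, BE replicate 3, NC replicate 1, NC replicate 2 or NC replicate 3 (edgeR adjusted p = 0.0757, 0.0521, 0.0764, 0.053 and 0.094). The count table does not separate the transcript isoforms of Srebf1.

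**Figure D2:**
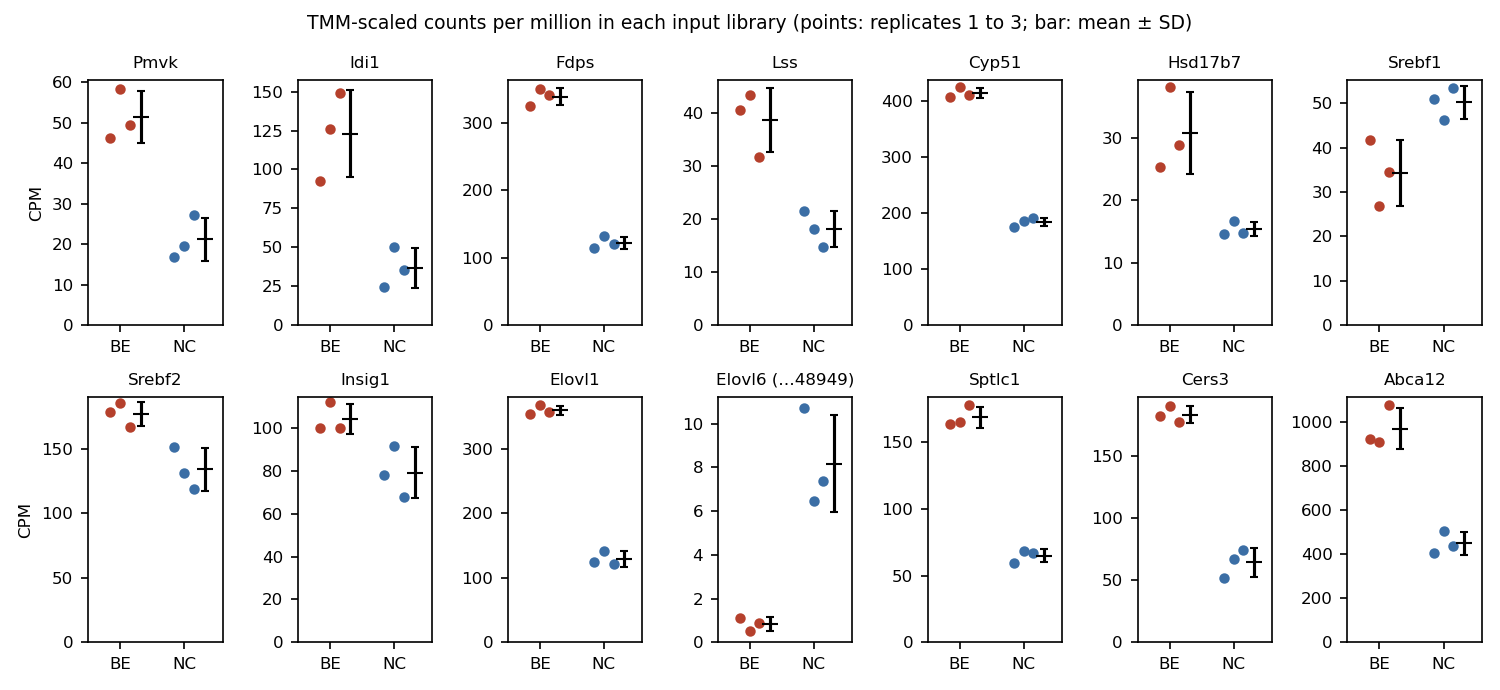
Each panel plots TMM-scaled CPM (vertical axis, from 0) for 1 gene in the 3 BE and the 3 NC input libraries, with the mean ± SD as the black bar. The panels hold the members that passed with at least a 2-fold change and the 3 regulators, and in none of them do the BE and NC points overlap.

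Promoter sequences are shown for 4 sterol enzymes that rose by at least 2-fold, of which Idi1, Fdps and Lss held the box marked in capitals and Cyp51 did not, for the regulator Srebf2, and for the ceramide synthase Cers3, which rose and did not hold it. Each covers 250 bases before to 50 bases after the RefSeq start, from the table of build GRCr8, and reads 5′ to 3′ on the gene's strand. Capitals mark CCAAT or its reverse complement ATTGG, the box bound by NF-Y, a factor that acts beside SREBP at many sterol genes. The windows are chr17:66547475-66547774 (minus strand) for Idi1, chr2:176804767-176805066 (minus strand) for Fdps, chr20:12118181-12118480 (minus strand) for Lss, chr4:30991443-30991742 (plus strand) for Cyp51, chr7:115543057-115543356 (plus strand) for Srebf2 and chr1:129748322-129748621 (plus strand) for Cers3.
Idi1: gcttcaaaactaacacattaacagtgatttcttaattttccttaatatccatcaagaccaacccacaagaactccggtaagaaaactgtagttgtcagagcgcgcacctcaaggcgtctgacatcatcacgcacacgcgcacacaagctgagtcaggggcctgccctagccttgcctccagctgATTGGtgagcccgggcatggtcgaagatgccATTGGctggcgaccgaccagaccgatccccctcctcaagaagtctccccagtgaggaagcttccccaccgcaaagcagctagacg
Fdps: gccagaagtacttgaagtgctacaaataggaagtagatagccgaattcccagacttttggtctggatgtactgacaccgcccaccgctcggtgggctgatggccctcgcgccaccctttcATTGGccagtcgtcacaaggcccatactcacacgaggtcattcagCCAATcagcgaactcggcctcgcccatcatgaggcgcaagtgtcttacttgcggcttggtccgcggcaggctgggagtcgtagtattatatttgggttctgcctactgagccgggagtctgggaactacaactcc
Lss: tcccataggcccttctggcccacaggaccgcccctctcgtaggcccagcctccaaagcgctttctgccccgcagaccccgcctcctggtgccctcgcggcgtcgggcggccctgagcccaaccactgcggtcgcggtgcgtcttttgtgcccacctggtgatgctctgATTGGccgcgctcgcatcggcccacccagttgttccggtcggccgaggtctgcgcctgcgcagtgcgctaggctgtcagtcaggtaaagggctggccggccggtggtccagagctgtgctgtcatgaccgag
Cyp51: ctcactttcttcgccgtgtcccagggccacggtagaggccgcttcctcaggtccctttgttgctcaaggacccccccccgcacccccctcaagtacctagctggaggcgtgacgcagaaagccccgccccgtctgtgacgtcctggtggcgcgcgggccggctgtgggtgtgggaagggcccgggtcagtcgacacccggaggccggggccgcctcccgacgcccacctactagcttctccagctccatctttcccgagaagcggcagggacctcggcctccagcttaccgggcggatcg
Srebf2: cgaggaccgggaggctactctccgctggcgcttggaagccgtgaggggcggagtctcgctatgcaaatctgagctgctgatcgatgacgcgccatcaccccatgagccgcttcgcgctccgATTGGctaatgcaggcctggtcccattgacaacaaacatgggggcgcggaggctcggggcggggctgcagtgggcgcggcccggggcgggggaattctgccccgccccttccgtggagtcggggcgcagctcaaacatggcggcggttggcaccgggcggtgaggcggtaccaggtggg
Cers3: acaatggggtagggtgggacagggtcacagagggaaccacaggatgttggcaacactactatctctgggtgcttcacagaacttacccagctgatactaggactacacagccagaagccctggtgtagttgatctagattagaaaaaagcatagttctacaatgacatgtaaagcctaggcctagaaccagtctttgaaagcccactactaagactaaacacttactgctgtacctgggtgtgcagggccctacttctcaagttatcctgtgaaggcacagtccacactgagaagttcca

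CCAAT, searched on both strands, was found in the promoters of 18 of the 25 members that matched the RefSeq table, or 72.0%. Counted by gene in the same way, it was found in 38.4% of the 9707 tested genes that matched. Counted by promoter, it was found in 37.5% of all 33469 in that table. The 18 members comprised 10 of the 12 sterol enzymes matched, all 3 regulators, and 5 of the other 10 members. Idi1 and Fdps held it at 2 positions each and Lss and Srebf2 at 1 position each, as the capitals show. Among the members called higher by at least 2-fold, the letters were in the windows of Idi1, Fdps, Lss and Hsd17b7. They were not in those of Cyp51, Elovl1, Sptlc1, Cers3 or Abca12. Of the members not called higher, Mvk, Acsl1, Aloxe3 and Srebf1 held the letters, and Dhcr7 and Alox12b did not. Of the sterol regulatory element, only the spelling TCACNCCAC was searched, on both strands. It was found in no member's window, in 1.16% of the tested genes matched and in 1.12% of all promoters. Other spellings were not searched, and with so rare a match 25 members are too few to show whether the element is absent. A match is a description of the letters in this window and not of binding. Fasn, Pmvk, Acaca, Elovl6, Sqle, Fdft1 and Ugcg had no entry in the table.

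All 3 enzymes of fatty acid synthesis were higher in BE, each by less than 2-fold. Fasn, the fatty acid synthase, had 353, 409 and 333 CPM in BE libraries and 220, 211 and 179 CPM in NC libraries. The groups did not overlap, and the log2 fold change was 0.84 ± 0.12 (SE, n = 3 each, edgeR adjusted p = 0.000328). Acly, which makes cytosolic acetyl-CoA from citrate, rose by 0.78 ± 0.10 on the log2 scale (SE, n = 3 each, edgeR adjusted p = 0.000124). Acaca, the cytosolic acetyl-CoA carboxylase, rose by 0.61 ± 0.12 (SE, n = 3 each, edgeR adjusted p = 0.00185).

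Elongation and activation genes were divided. Elovl1 (ENSRNOG00000028448), which elongates saturated very-long-chain fatty acids, had 353, 367 and 356 CPM in BE libraries and 124, 142 and 121 CPM in NC libraries. The gap was many times the spread within either group, and the log2 fold change was 1.48 ± 0.10 (SE, n = 3 each, edgeR adjusted p = 3.72e-06). Elovl4, which makes the ultra-long fatty acids of skin acylceramides, had 391, 357 and 410 CPM in BE libraries and 198, 207 and 219 CPM in NC libraries. The groups lay well apart, and the log2 fold change was 0.89 ± 0.10 (SE, n = 3 each, edgeR adjusted p = 6.93e-05). Acsl1, an acyl-CoA synthetase abundant in fat, liver and muscle, had 305, 206 and 199 CPM in BE libraries and 379, 394 and 270 CPM in NC libraries. BE replicate 1 lay above NC replicate 3, and Acsl1 did not pass (log2 fold change -0.55 ± 0.20, SE, n = 3 each, edgeR adjusted p = 0.058). Without BE replicate 1 its log2 fold change was -0.75 (edgeR adjusted p = 0.0022), and without NC replicate 3 it was -0.71 (edgeR adjusted p = 0.0184).

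Elovl6, which elongates palmitate to stearate, could not be given a single direction. The row ENSRNOG00000048949 had 1.11, 0.516 and 0.900 CPM in BE libraries and 10.7, 6.45 and 7.40 CPM in NC libraries, a log2 fold change of -3.26 ± 0.48 (SE, n = 3 each, edgeR adjusted p = 0.000403). The row ENSRNOG00000010468 had 0.580, 3.96 and 2.14 CPM in BE libraries and 0.101, 0.336 and 0.790 CPM in NC libraries, a log2 fold change of 2.38 ± 0.97 (SE, n = 3 each, edgeR adjusted p = 0.0728). The first row was lower in every BE library, while the second overlapped between groups and did not pass. The second row passed without BE replicate 1 (log2 fold change 2.85, edgeR adjusted p = 0.0255) and, over all libraries, by DESeq2 (log2 fold change 2.40, adjusted p = 0.045). Both rows had low counts, of 9 to 106 and of 1 to 69 per library. No source used here says how the counting split reads between them, so the level of Elovl6 is uncertain.

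All 4 members of ceramide and glucosylceramide synthesis were higher in BE. Cers3 (ENSRNOG00000013823), the ceramide synthase of very-long-chain ceramides in epidermis, had 182, 190 and 177 CPM in BE libraries and 51.4, 67.1 and 74.6 CPM in NC libraries. Its BE values were tight and its NC values spread more, and the log2 fold change was 1.51 ± 0.14 (SE, n = 3 each, edgeR adjusted p = 2.4e-05). Sptlc1 (ENSRNOG00000010882), a subunit of serine palmitoyltransferase, which makes the sphingoid base, had 164, 165 and 178 CPM in BE libraries and 59.6, 68.4 and 67.2 CPM in NC libraries. The groups were far apart, with a log2 fold change of 1.38 ± 0.11 (SE, n = 3 each, edgeR adjusted p = 8.16e-06). Its partner subunit Sptlc2 rose by 0.73 ± 0.16 on the log2 scale (SE, n = 3 each, edgeR adjusted p = 0.00424). Ugcg, the glucosylceramide synthase, had 436, 393 and 411 CPM in BE libraries and 230, 308 and 267 CPM in NC libraries. The groups did not overlap, and the log2 fold change was 0.62 ± 0.12 (SE, n = 3 each, edgeR adjusted p = 0.00211).

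Of the 3 barrier genes, 1 passed. Abca12 (ENSRNOG00000015248), which loads glucosylceramide into lamellar granules, had 925, 909 and 1080 CPM in BE libraries and 407, 508 and 436 CPM in NC libraries. The groups did not overlap, and the log2 fold change was 1.11 ± 0.12 (SE, n = 3 each, edgeR adjusted p = 5.27e-05). The paired epidermal lipoxygenases Alox12b and Aloxe3, which act in turn on the linoleate of acylceramides, did not pass. Alox12b had 303, 320 and 405 CPM in BE libraries and 279, 318 and 369 CPM in NC libraries, with a 95% confidence interval of -0.23 to 0.41 for its log2 fold change of 0.09. Aloxe3 had 73.0, 65.6 and 98.3 CPM in BE libraries and 87.1, 80.8 and 86.1 CPM in NC libraries, with an interval of -0.44 to 0.24 around -0.10. Both genes overlapped between the groups, and in each BE replicate 3 was the highest of the BE values.

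A list of 75 other genes of these pathways was set beside the members. It filled 69 rows of the table, and 66 of them were tested. Of these, 25 were higher, 8 were lower and 33 did not pass (edgeR, adjusted over all genes tested), with a median log2 fold change of 0.27. The other sterol enzymes resembled the members in their counts: 6 of 7 were higher and none was lower, with a median of 1.16. As given above, 21.8% of all genes tested were higher and 21.8% were lower, against 37.9% and 12.1% of these 66. Of the genes of sterol uptake and control, 1 of 10 tested was higher and none was lower, and of those of sterol efflux and storage, 2 of 8 were higher and none was lower. Of the other fatty acid genes, 3 of 14 were higher and 4 were lower. The shares of the efflux and storage genes higher (25%) and of the fatty acid genes higher (21.4%) and lower (28.6%) were near those of all genes. Of the other ceramide genes, 6 of 17 were higher and 3 were lower, and of the other barrier genes, 7 of 10 were higher and 1 was lower.

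Lipn, Tm7sf2 and Sult2b1 were among the largest rises in that list. Lipn, an epidermal lipase, had 48.2, 81.3 and 75.9 CPM in BE libraries and 10.3, 5.10 and 5.67 CPM in NC libraries (log2 fold change 3.30 ± 0.32, SE, n = 3 each, edgeR adjusted p = 8.24e-05). Sult2b1, which makes cholesterol sulfate in stratified epithelia, rose by 1.69 ± 0.16 (SE, n = 3 each, edgeR adjusted p = 2.35e-05). Tm7sf2, a sterol reductase, had 5.32, 8.37 and 5.85 CPM in BE libraries and 1.71, 2.49 and 1.72 CPM in NC libraries, and rose by 1.71 ± 0.43 on the log2 scale (SE, n = 3 each, edgeR adjusted p = 0.0084).

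The largest falls were in Acacb, Fads2, Fads1 and Sptssb. Acacb, the mitochondrial acetyl-CoA carboxylase, abundant in muscle and fat, had 5.90, 9.23 and 8.04 CPM in BE libraries and 60.5, 54.1 and 59.3 CPM in NC libraries. Its paralog Acaca was higher in BE, as given above, while Acacb fell by 2.91 ± 0.20 on the log2 scale (SE, n = 3 each, edgeR adjusted p = 3.03e-06). The fatty acid desaturases Fads2 and Fads1 had log2 fold changes of -2.24 ± 0.32 and -1.30 ± 0.36 (SE, n = 3 each, edgeR adjusted p = 0.000337 and 0.0189). Sptssb, a small subunit of serine palmitoyltransferase, had 133, 54.8 and 140 CPM in BE libraries and 258, 251 and 280 CPM in NC libraries, a log2 fold change of -1.27 ± 0.36 (SE, n = 3 each, edgeR adjusted p = 0.0358). Striated muscle and adipocyte markers, given above, were lower in the same BE libraries, and their part in these falls was not tested.

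**Figure D3:**
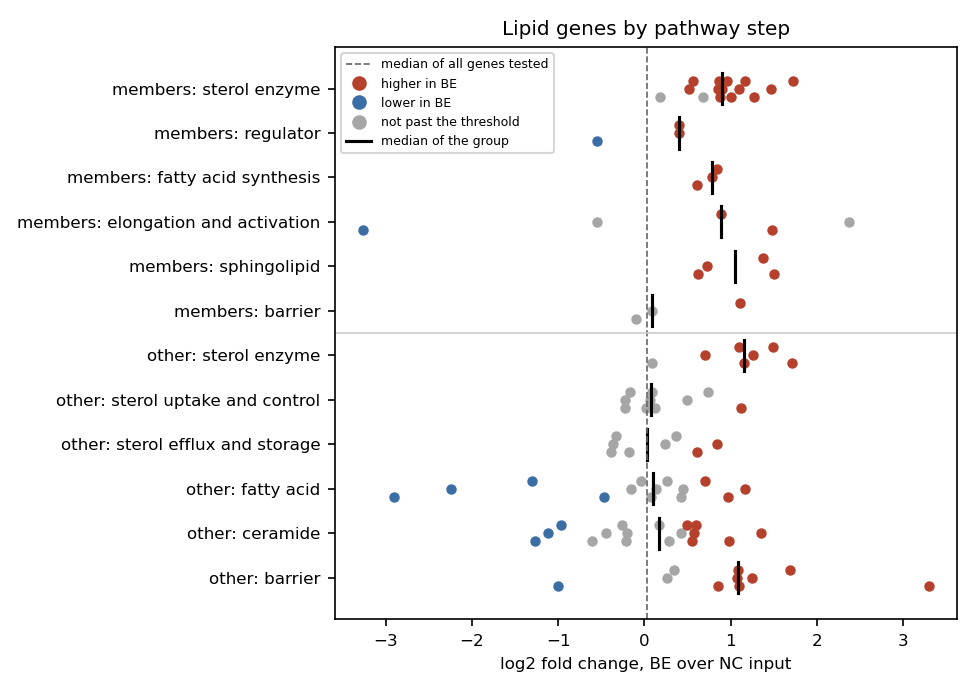
Each point is the log2 fold change of BE over NC input RNA for 1 gene, by pathway step, for the members (upper 6 rows) and the other genes of the pathways (lower 6 rows), with the median of each step as a black line. The sterol enzymes of both sets and the other barrier genes have medians of 0.90, 1.16 and 1.08, against 0.03 for all genes tested, and the other fatty acid genes spread to both sides.

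The m6A peak lists were then read for the same genes. Peaks were listed per library, and peaks that overlapped by at least 1 base were joined into regions. The members had 45, 45 and 49 peaks in BE replicates 1 to 3 and 34, 41 and 34 peaks in NC replicates 1 to 3. These were 0.219%, 0.233% and 0.239% of all peaks in the BE lists and 0.204%, 0.217% and 0.196% in the NC lists, which held 19329 to 20531 peaks in BE and 16644 to 18864 in NC. At least 1 peak was listed for 27 of the 32 members, or 84.4%, against 73.2% of the 13638 gene symbols tested for expression. No peak was listed for Hsd17b7, Srebf1, Acly, Fasn or Sptlc1. The depth of the immunoprecipitated libraries is unknown here, and a peak is easier to call on a transcript with more reads, so that a peak in 1 group only does not separate methylation from transcript level.

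A region with a peak in all 6 libraries was found in 16 members, or 50%, against 45.1% of all genes tested, a share near the background. They were Hmgcs1, Mvk, Pmvk, Mvd, Fdft1, Sqle, Lss, Cyp51, Msmo1, Dhcr7, Acaca, Elovl1, Elovl6, Sptlc2, Cers3 and Abca12. Pmvk had 4 such regions, the most of any member. Of these 4 Pmvk regions, the one with the highest fold enrichment within each of the authors' lists lay at chr2:208207310-208207794. Its deposited fold enrichment was 24.78, 34.36 and 27.62 in BE replicates 1 to 3 and 49.03, 36.23 and 23.13 in NC replicates 1 to 3. These enrichments are the authors' values for each peak within its own list, and the coordinates are those of the lists, taken as counted from 0 at the start and printed from 1. No source used here names their genome build.

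Regions with a peak in all 3 BE libraries and in no NC library were found in 4 members, or 12.5%, against 6.97% of all genes tested. Fdft1 had 2 of them, at chr15:50111023-50111199 and chr15:50121152-50121335. The deposited fold enrichment of the first was 5.92, 4.69 and 5.03 in BE replicates 1 to 3, and that of the second was 5.1, 6.5 and 5.58. Mvk had 2 as well, at chr12:49696837-49696990 and chr12:49699551-49699669, with deposited enrichments of 9.29 to 11.35 and of 7.42 to 8.79 in the BE libraries. Fdft1 and Mvk also each had a region with a peak in all 6 libraries. Idi1 and Insig1 had 1 region each, at chr17:59788933-59789305 and chr4:337389-337794, and no other peak in any list. The deposited enrichment was 15.30, 5.70 and 5.68 for Idi1 and 4.53, 5.46 and 7.72 for Insig1 in BE replicates 1 to 3. Of these 4 genes, Fdft1, Idi1 and Insig1 were higher in BE input RNA and Mvk did not pass.

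Regions with a peak in all 3 NC libraries and in no BE library were found in 2 members, or 6.25%, against 4.01% of all genes tested. They lay in Cers3 at chr1:128854691-128855535 and in Ugcg at chr5:80559895-80561199. The deposited fold enrichment was 7.28, 6.06 and 6.54 for Cers3 and 11.13, 7.99 and 10.18 for Ugcg in NC replicates 1 to 3. Both genes were higher in BE input RNA, with log2 fold changes of 1.51 and 0.62, so that in these 2 genes the group with the peak was the group with the lower transcript level. Ugcg had no peak in any BE list, while Cers3 kept a second region, at chr1:128826891-128827044, with a peak in all 6 libraries.

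**Figure D4:**
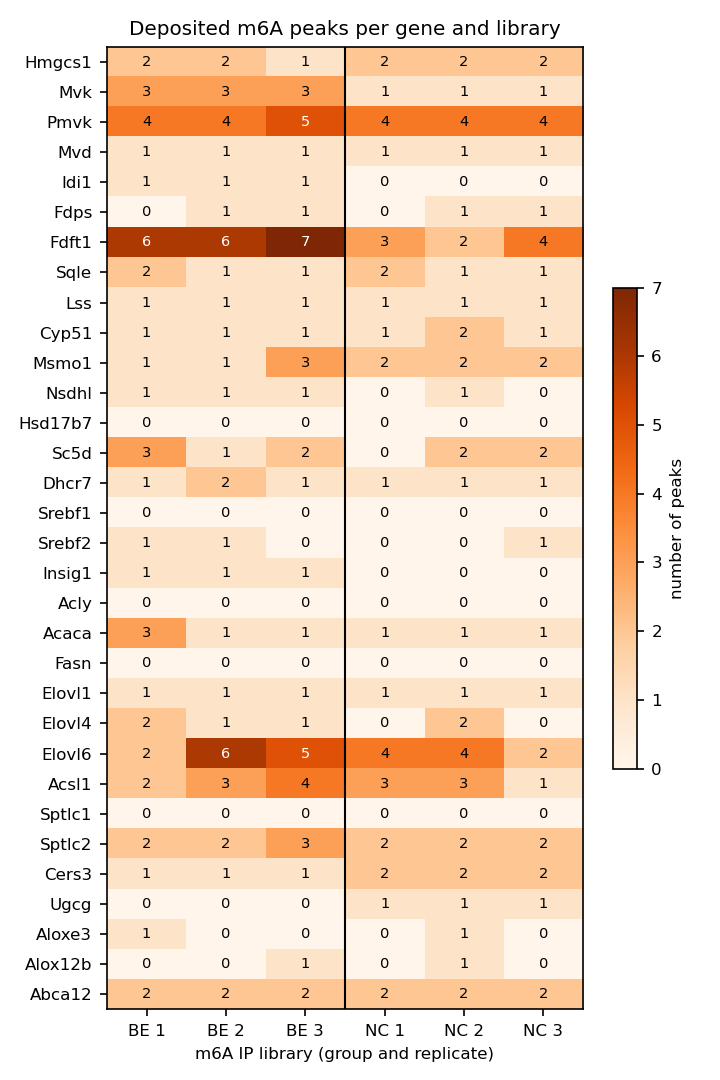
The number of deposited m6A peaks is given for each of the 32 members (vertical axis) in each of the 3 BE and 3 NC immunoprecipitated libraries (horizontal axis), with darker cells for more peaks. Idi1 and Insig1 have a peak in each BE library and none in NC, Ugcg has the reverse, and Fdft1 has 6, 6 and 7 peaks in BE against 3, 2 and 4 in NC.

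The remaining members varied between libraries of a group. Elovl4 had a region with a peak in all 3 BE libraries and in 1 NC library. Nsdhl had a peak in as many libraries, but that of BE replicate 1 lay at a different position from the others. The Nsdhl peaks were listed on chr1, while its RefSeq promoter lies on chrX, and this difference was not resolved. Sc5d had one in 3 BE libraries and 2 NC libraries, Srebf2 in 2 BE libraries and 1 NC library, and Fdps in 2 libraries of each group but at different positions. Aloxe3 and Alox12b each had a peak in 1 BE library and 1 NC library, and Acsl1 had between 1 and 4 peaks in every library. Elovl6 had 6 regions under its name, spread over 293 kb. Of the 53 member regions found in more than 1 library, 47 had the same start and end in every library that listed them.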

How the data were processed

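Input RNA and m6A immunoprecipitates of 3 BE and 3 NC samples were sequenced. Per the submitters' processing notes, reads went through cutadapt 1.9.3 and HISAT2 2.0.4. No source used here gives the counter, the peak caller settings, the build or the strand setting. The deposited count table, per the file headers, holds whole-number counts per gene for the 6 input libraries, beside 6 columns of normalized values that were not used. Each deposited peak list gives, per the file headers, a fold enrichment (a ratio) and a score of −10 × log10 of the p-value, both set by the authors.

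Counts were filtered (filterByExpr, minimum count 10), scaled by TMM and tested on the whole table with edgeR 4.0.16 in R 4.3.3, after a run on simulated data, and p-values were adjusted by Benjamini-Hochberg over 13761 genes. CPM values are TMM-scaled. Peaks were joined with pandas 2.3.3. Members and lists were chosen with earlier results of these data known, so no p is given over the members together, peak numbers included. Named in full were members past the threshold with at least a 2-fold change and the 3 regulators, and of the 75 other genes the 4 largest rises and falls at 5 CPM or more, except 1 that is not reported here. Alternatives were RLE scaling, no filter, DESeq2 1.42.0, limma 3.58.1 voom with quality weights, a replicate block, each library left out, and stricter or looser peak rules. Enrichments were not compared between lists.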

Additional observations from a re-analysis of the deposited data

How the results depend on the processing

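The count of members higher in BE was 25 with RLE scaling, with no filter on low counts, with voom and with the replicate block, and 26 with DESeq2, which added the Elovl6 row ENSRNOG00000010468; leaving out each library in turn gave 22 to 26. The count of members lower was 2 as reported and with no filter, and 3 under RLE scaling, DESeq2, voom and the block. With each library left out it was 1 to 3, being 1 without BE replicate 2 or 3 or NC replicate 1 or 2. The third call was Acsl1 (log2 fold change -0.56, edgeR adjusted p = 0.0198 with the replicate block). Among the other genes of the pathways, 21 to 25 were higher and 5 to 9 were lower with each library left out, the lowest number of falls, 5, coming without NC replicate 1 or 2. Single genes were refitted for the members only, and of these the barrier lipoxygenases, which did not pass, changed sign: Aloxe3 ran from -0.30 to 0.01 with each library left out (0.01 without BE replicate 2), and Alox12b from -0.06 to 0.20 (-0.06 without BE replicate 3 and -0.01 without NC replicate 1). Replicate numbers showed no sign of pairing the samples. The deviations of same-numbered BE and NC libraries correlated at -0.07, -0.01 and -0.12, and those of differently numbered libraries at -0.03 to 0.09. With 3 libraries per group this check cannot exclude a shared batch. With the replicate block, 25 members were higher. For the m6A regions, 3 to 6 members had a BE-only region, 2 or 3 an NC-only region and 14 to 18 a shared region under the alternatives tried, against 4.44 to 15.2%, 3.94 to 7.79% and 41.7 to 52.9% of all genes tested. With 2 of 3 libraries required, 6, 3 and 18 of the 32 members stood against 15.2%, 7.79% and 52.9% of all genes tested. For BE-only regions this looser rule moved the members from 4 to 6 and the share of all genes tested from 6.97% to 15.2%. Insig1 lost its BE-only region when a fold enrichment of at least 5 was required. Elovl6 had at most 106 counts in any library.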

Other observations

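Within the 17 other ceramide genes tested, rises and falls stood side by side in enzymes that make or use ceramide. Smpd1, the acid sphingomyelinase, had 121, 127 and 111 CPM in BE libraries and 70.3, 55.3 and 56.7 CPM in NC libraries (log2 fold change 0.98, edgeR adjusted p = 2e-04). Asah1, an acid ceramidase, had 50.2, 37.7 and 42.7 CPM in BE libraries and 84.5, 95.1 and 105 CPM in NC libraries (log2 fold change -1.12, edgeR adjusted p = 0.000172). Sgms1, a sphingomyelin synthase, had 25.4, 34.4 and 29 CPM in BE libraries and 59.1, 56.3 and 58.9 CPM in NC libraries (log2 fold change -0.97, edgeR adjusted p = 0.000482). The small subunits of serine palmitoyltransferase also moved apart: Sptssa had 103, 75.2 and 106 CPM in BE libraries and 40.6, 33.8 and 36.8 CPM in NC libraries (log2 fold change 1.35, edgeR adjusted p = 8.93e-05), while Sptssb, given above, was lower. In each of these genes every BE library lay on the same side of every NC library. These genes were picked from the list after their values were seen.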
